A study of Mus musculus with 2 samples.

Results

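The 10 genes of the lipid-associated macrophage programme described here, *Trem2*, *Gpnmb*, *Apoe*, *Apoc2*, *Lgals3*, *Cd9*, *Cd63*, *Fabp5*, *Msr1* and *Abca1*, were followed through the mouse abdominal aorta by single-cell RNA sequencing. The genes were taken by symbol, and each matched 1 row of the matrices, so that 10 of 33696 rows are described here. Aortas came from 5-month-old male C57BL/6J mice. The Control group received saline, and the AngII+HS group received angiotensin II from an osmotic minipump together with high-salt drinking water (NaCl and KCl), a model of abdominal aortic aneurysm, and tissue was taken at day 28. Each condition is 1 library, made from pooled tissue of 5 mice by the series description, whereas the extraction label speaks of 1 control mouse and 2 induced mice. No difference between the conditions could therefore be tested. The barcode lists deposited beside the matrices have crossed lengths, so each matrix was taken by the sample it is listed with. As assigned, VSMC-like cells were 49.6% of Control and 3.56% of AngII+HS cells, and neutrophil-like cells 0.964% and 23.5%. Values are given with 95% intervals that cover counting error only, and the spread between animals is unknown.

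Lipid-associated macrophages are found where cells die or lipid accumulates, in adipose tissue, fatty liver and atherosclerotic plaque. TREM2 is a surface receptor that binds lipids and lipoproteins and signals through the adaptor TYROBP. Scavenger receptors such as MSR1 take up modified lipoproteins, FABP5 carries fatty acids inside the cell, ABCA1 exports cholesterol to apolipoproteins, and APOE and APOC2 are apolipoproteins. GPNMB, CD63 and CD9 are membrane proteins of lysosomes and vesicles, and galectin-3, encoded by *Lgals3*, is a sugar-binding protein that is plentiful in phagocytes.

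The 250 bases upstream of the annotated start are shown for *Trem2*, *Gpnmb* and *Abca1*. *Trem2* is the receptor after which these cells are often called, and *Gpnmb* spanned the widest range of levels over the AngII+HS phagocyte groups. *Abca1* was the one member whose window held the E-box CACGTG, and other E-box sequences were not searched. The windows were taken from RefSeq (GRCm38.p6), in which 8 of the 10 genes had a window, and *Fabp5* and *Msr1* had none. Capitals mark a match to one of 5 motifs that were searched on both strands.
Trem2, chr17:48346151-48346400, plus strand: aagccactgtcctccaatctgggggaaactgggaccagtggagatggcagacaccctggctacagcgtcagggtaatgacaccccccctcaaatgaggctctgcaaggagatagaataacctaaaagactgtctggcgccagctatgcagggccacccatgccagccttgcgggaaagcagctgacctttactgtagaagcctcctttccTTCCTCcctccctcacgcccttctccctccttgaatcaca
Gpnmb, chr6:49036268-49036517, plus strand: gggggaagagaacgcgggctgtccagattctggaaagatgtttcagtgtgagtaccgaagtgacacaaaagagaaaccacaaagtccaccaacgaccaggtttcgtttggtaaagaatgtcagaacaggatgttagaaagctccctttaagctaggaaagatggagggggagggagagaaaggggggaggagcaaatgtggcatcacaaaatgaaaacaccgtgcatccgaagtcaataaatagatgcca
Abca1, chr4:53159896-53160145, minus strand: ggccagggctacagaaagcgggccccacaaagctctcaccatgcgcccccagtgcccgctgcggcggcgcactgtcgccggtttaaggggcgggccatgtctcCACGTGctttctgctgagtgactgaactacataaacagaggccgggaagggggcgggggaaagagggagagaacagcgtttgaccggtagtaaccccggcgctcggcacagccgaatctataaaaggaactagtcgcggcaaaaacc
The E-box CACGTG, the core that MITF and TFE family factors bind, lay 147 to 142 bases before the start of *Abca1* and in no other member window, and it was present in 6.02% of all 32851 windows of this length. GAGGAA, a PU.1 core, was found in the *Apoe*, *Cd63* and *Trem2* windows and in 23.3% of all windows. In *Trem2* it lay on the opposite strand, 40 to 35 bases before the start. The palindrome TCACGTGA, which contains the E-box, was in 0.785% of windows, the AP-1 site TGACTCA in 4.46%, and the spaced direct repeat of LXR receptors in 0.0213%, and none of the 3 occurred in a member window. The LXR repeat was searched in only its exact spelling, apart from the free spacer, and variants of it were not searched. Its absence from the member windows, that of *Abca1* included, therefore refers to that spelling alone. A match is a description of letters, and binding was not measured. On GRCm39, the build named in the matrices, *Trem2* lies at chr17:48653429-48661175, *Gpnmb* at chr6:49013426-49047863 and *Abca1* at chr4:53030787-53159900, while *Apoe* (chr7:19430034-19434947) and *Apoc2* (chr7:19405504-19411877) are neighbours.

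After filtering, 10269 Control cells (median 7265 UMIs) and 19734 AngII+HS cells (median 3069.5 UMIs) remained. Clusters were formed without the 10 genes and named from fixed marker lists, so every name means a cell that resembles that type. Mononuclear phagocytes were 482 Control cells (4.69%) and 4314 AngII+HS cells (21.9%), with similar median depths of 4120 and 4001 UMIs. Resident-like macrophages (*Lyve1*, *Folr2*, *Cd163*) made up 72.6% of Control and 23% of AngII+HS phagocytes. Most of them (245 and 709 cells) were in cluster 1, which had no resident marker among its leading genes. Its score was 1.08 for the resident list and 0.84 for the C1q list. At resolution 1 the resident-like class had 173 and 355 cells, against 350 and 991 here, and C1q macrophage-like cells numbered 193 and 1604, against 79 and 547 here. Arg1 macrophage-like cells (clusters 0 and 4) numbered 1728, all in the AngII+HS library, and 0 of 482 in Control, which allows a share of up to 0.622%, so this class cannot be told apart from that library. Ly6c2 monocyte-like cells numbered 42 and 262. The split between these AngII+HS classes depended on the clustering, with 847 monocyte-like and 1249 Arg1 cells without doublet removal, 1437 and 541 with the members kept, and 410 and 1469 at resolution 1. C1q macrophage-like cells fell into cluster 3 (26 and 472 cells) and the *Cd5l*-led cluster 7 (53 and 75 cells). The Control cells of cluster 7 had a median of 720 UMIs against 8902, and only 13 passed 1000 UMIs, so cluster 7 is described in AngII+HS alone. Cluster 7 was separate only in some clusterings, since 62 of its 75 AngII+HS cells fell into the larger C1q cluster without doublet removal, 64 under the stricter cell filter, 65 with the members kept for clustering and 66 under merging, and resolution 0.3 gave no such cluster. Cluster 2 (11 and 761 cells), led by *Irf7* and *Ly6c2*, was left unnamed. Markers of other cells moved with condition inside the phagocytes. The summed level of 8 fibroblast markers was 184 CPM (counts per 1000000 UMIs of those cells) in Control and 661 in AngII+HS, that of 7 smooth muscle markers was 859.8 and 503, and no marker of either list was at 0. T, NK and B cell-like cells are given beside the results as a stand-in for the level of RNA free in the suspension. How much of that level is their own RNA was not tested. Per 100 phagocyte marker UMIs in AngII+HS, they held more *Cd9* (20.6 against 4.05), *Abca1* (25.6 against 6.29), *Fabp5* and *Cd63* than phagocytes. They held similar *Apoe* and *Lgals3*, and less *Trem2* (1.19 against 2.06), *Msr1*, *Apoc2* and *Gpnmb*. The median depth of AngII+HS T, NK and B cell-like cells was 2143 UMIs, against 5111 in fibroblast-like and 8742.5 in VSMC-like cells. How the level of free RNA in CPM varies with depth was not tested.

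In the phagocytes as a whole, every one of the 10 genes had a higher level in AngII+HS than in Control, and 6 of the 10 were at least 2-fold higher. These were *Fabp5*, *Gpnmb*, *Apoc2*, *Lgals3*, *Cd9* and *Trem2*. Among all 13516 genes with at least 20 UMIs, 10.6% were at least 2-fold higher and 17.2% at least 2-fold lower, and none of the 10 was lower. The 10 genes were chosen with earlier results of these data known. The counts here and within groups below therefore describe these genes and are not independent support. The median log2 ratio of the 10 was 1.98, beside -0.12 over all genes. Scaling by TMM factors shifts every ratio up by 0.32 (log2), which puts 17.1% of all genes higher and 11.1% lower, and 7 of the 10 higher. Merging the libraries without integration left 73 named Control phagocytes, with 8 of the 10 at least 2-fold higher and the log2 ratio of *Apoe* at 2.59 and of *Lgals3* at 0.60. Of these 73 cells, 41 were monocyte-like and 1 was resident-like, against 42 and 350 of 482 with integration. The share of all genes past 2-fold is not given for merging. The makeup of the phagocytes differed between the libraries, so the genes are also given within each group. Where a pair of levels is given, Control comes first, and the log2 ratio of AngII+HS to Control and its 95% interval follow in parentheses.

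*Trem2*, the lipid receptor, measured 66.1 CPM (95% interval 55.7 to 78) in Control phagocytes and 240.5 CPM (233 to 248) in AngII+HS, a 3.64-fold higher level (log2 ratio 1.86, 1.62 to 2.11). Within resident-like macrophages it measured 59.3 and 179 CPM (1.59, 1.28 to 1.92). Within C1q cluster 3 it measured 213 and 542 CPM (1.35, 0.82 to 1.93). *Trem2* was thus already present in the Control aorta, with its highest Control level in cluster 3, and was more than 2-fold higher in the same groups of the AngII+HS library. In Ly6c2 monocyte-like cells the levels were 50.5 and 84.5 CPM, and the interval of the ratio (-0.01 to 1.58) included 0. In AngII+HS the order ran from cluster 7 (1194 CPM) through cluster 3, cluster 2 (201 CPM) and resident-like macrophages to Arg1 macrophage-like cells (126 CPM) and monocyte-like cells, and in this order only the intervals of cluster 2 and resident-like macrophages overlapped. Among the macrophages of AngII+HS, the Arg1 cells had the lowest *Trem2* level of these groups.

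*Msr1*, the class A scavenger receptor, was distributed differently. Its level was 156 CPM in Control and 254 CPM in AngII+HS phagocytes (0.70, 0.54 to 0.87). In resident-like macrophages it was lower in AngII+HS, at 84.7 against 131 CPM (-0.63, -0.89 to -0.37), the only one of the 10 below Control there. The highest levels were in Arg1 macrophage-like cells (413 CPM, AngII+HS) and in monocyte-like cells (324 and 346 CPM), and clusters 3 and 7, the highest in *Trem2*, held only 109 and 125 CPM in AngII+HS. The clusters highest in *Trem2* were thus low in *Msr1*, and the Arg1 and monocyte-like cells, the lowest of the 6 phagocyte groups in *Trem2*, were the highest in *Msr1*.

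*Gpnmb*, a glycoprotein of lysosomal and phagosomal membranes, was scarce in Control phagocytes, with 30 UMIs in 482 cells (14.1 CPM, 9.49 to 20.1). Of these UMIs, 19 lay in the 42 monocyte-like cells, 2 in resident-like macrophages and 0 in clusters 3 and 7. The others lay in the 11 Control cells of cluster 2, for which no ratio is given and which had 70.5 CPM in AngII+HS. Most Control *Gpnmb* thus came from monocyte-like cells and cluster 2. Over all AngII+HS phagocytes *Gpnmb* measured 219 CPM (213 to 226), a log2 ratio of 3.96 (3.45 to 4.53). Resident-like macrophages held 2 UMIs in Control and 107 in AngII+HS (1.27 and 30.3 CPM), a log2 ratio of 4.57 with a wide interval (2.68 to 7.64). Resident-like cells were thus the lowest of the 6 AngII+HS phagocyte groups in level, although the ratio was large. In cluster 3, Control had 0 UMIs and AngII+HS 396 CPM, at least 18-fold higher when Control is set to 3 counts over the group. Cluster 7 reached 2749.7 CPM (2621 to 2884), far above cluster 3 and the Arg1 cells (129.6 CPM). Monocyte-like cells measured 56.4 and 54.8 CPM and showed no difference beyond counting error (-0.80 to 0.79).

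The apolipoproteins differed from each other. *Apoe*, which carries cholesterol out of the cell, was abundant in both libraries, at 7280.5 CPM in Control and 9812 CPM in AngII+HS phagocytes (0.43). In resident-like macrophages it measured 8857 and 13522 CPM, and in cluster 3 4751 and 18622 CPM. The level within cluster 3 was thus 3.92-fold higher, a larger ratio than over all phagocytes. The Arg1 cells, which only AngII+HS held, had a low level (3060.2 CPM). The part that the makeup of the phagocytes had in the ratio of *Apoe* over all of them was not tested. Cluster 7 had 48992 CPM. Monocyte-like cells had 131 CPM in Control and 2704 CPM in AngII+HS (4.37, 3.94 to 4.84). T, NK and B cell-like cells also differed, at 68.6 and 430.4 CPM, and the part of free *Apoe* RNA in the monocyte value was not tested beyond subtraction of that level, after which the log2 ratio was 5.20. *Apoc2*, the cofactor of lipoprotein lipase, measured 29.1 and 327 CPM in phagocytes (3.49, 3.13 to 3.88). Unlike *Apoe*, it was highest in Arg1 macrophage-like cells (628 CPM) and monocyte-like cells (154 and 452 CPM), with 214 CPM in AngII+HS cluster 7, and low in resident-like macrophages (5.74 and 34 CPM) and cluster 3 (7.34 and 57.9 CPM).

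*Fabp5*, the fatty acid carrier, had the largest ratio of the 10 in phagocytes, at 18.8 CPM in Control (40 UMIs) and 893 CPM in AngII+HS, 47.6-fold higher (5.57, 5.13 to 6.06). It was higher in each of the 3 phagocyte groups compared. Resident-like macrophages measured 10.8 and 235 CPM (4.44), and monocyte-like cells 59.4 and 367 CPM (2.63). In cluster 3, Control had 1 UMI and AngII+HS 2305 (6.95, 4.47 to 12.26). Arg1 macrophage-like cells had 1055 CPM and cluster 7 6051 CPM. Levels outside the phagocytes were not low either, since AngII+HS dendritic-like cells had 783 CPM and vascular endothelial-like cells 513 CPM, and T, NK and B cell-like cells went from 19.7 to 86.2 CPM. *Abca1*, the cholesterol exporter, differed little overall (630.4 and 733 CPM, 0.22) and within resident-like macrophages (788 and 863 CPM, 0.13). It was 2.22-fold higher in AngII+HS within cluster 3 (375 and 832 CPM) and 3.66-fold higher within monocyte-like cells (109.8 and 402 CPM). The Control interval of monocyte-like cells (77.3 to 151) overlapped that of T, NK and B cell-like cells (76.1 to 116).

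*Lgals3* measured 427 and 1859 CPM in phagocytes (2.12, 2.03 to 2.22). Control monocyte-like cells already held 1546 CPM, and AngII+HS monocyte-like cells 1748 CPM. Within the macrophages the levels were 151 and 565 CPM in resident-like cells and 977 and 2110 CPM in cluster 3. AngII+HS cluster 3 and Arg1 cells (2088 CPM) thus stood above the monocyte level. The part that the makeup of the phagocytes had in the ratio of *Lgals3* over all of them was not tested. *Cd63*, a late endosomal tetraspanin, measured 534 and 746 CPM over all phagocytes (0.48). It measured 32.6 and 115 CPM in monocyte-like cells and was 2.58-fold higher in cluster 3 (499 and 1289 CPM), with 2581 CPM in cluster 7. The Control monocyte value (16.3 to 58.4) was not above the Control lymphoid level of 34.3 CPM. *Cd9*, another tetraspanin, measured 111 and 472 CPM (2.09, 1.91 to 2.29). No single group held both libraries with a ratio that large, since the log2 ratio was 0.85 in resident-like macrophages, 0.68 in cluster 3 and 0.44 in monocyte-like cells. The Arg1 cells, absent from Control, carried 699.8 CPM. Within the Arg1 class, cluster 4, which was led by *Ppbp* and *Hmox1*, and cluster 0 differed, with *Fabp5* at 2724 CPM in cluster 4 and 736 CPM in cluster 0, *Cd9* at 465 and 745 CPM, and *Gpnmb* at 239.5 and 109 CPM. Cluster 7, the highest of the 6 AngII+HS phagocyte groups for 7 of the 10 genes, had only 231 CPM.

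Resident-like macrophages came from clusters 1 and 5, and in both *Trem2* and *Fabp5* were higher in AngII+HS, while *Msr1* was lower beyond counting error in cluster 1 only. *Trem2* measured 64.8 and 177 CPM in cluster 1 and 46.5 and 184 CPM in cluster 5. *Fabp5* measured 10 and 247 CPM in cluster 1 and 12.7 and 203 CPM in cluster 5. *Msr1* measured 132 and 78.1 CPM (-1.07 to -0.44) in cluster 1 and 129 and 102 CPM (-0.81 to 0.15) in cluster 5, these being the intervals of the log2 ratios. *Gpnmb* was less even, since AngII+HS cluster 1 held 38.5 CPM (31.3 to 46.9) and cluster 5 8.35 CPM (3.6 to 16.4). The unnamed cluster 2, which had 761 AngII+HS cells, was intermediate for *Apoe* (8671 CPM), *Cd63* (676 CPM) and *Apoc2* (201 CPM) and as high as cluster 3 in *Lgals3* (2195 CPM). A *Marco*-led cluster of 25 AngII+HS cells, unnamed, held 0 *Trem2* UMIs, which allows up to 28 CPM, although it had *Cd63* at 963 CPM and *Apoe* at 4757 CPM.

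**Figure D1:**
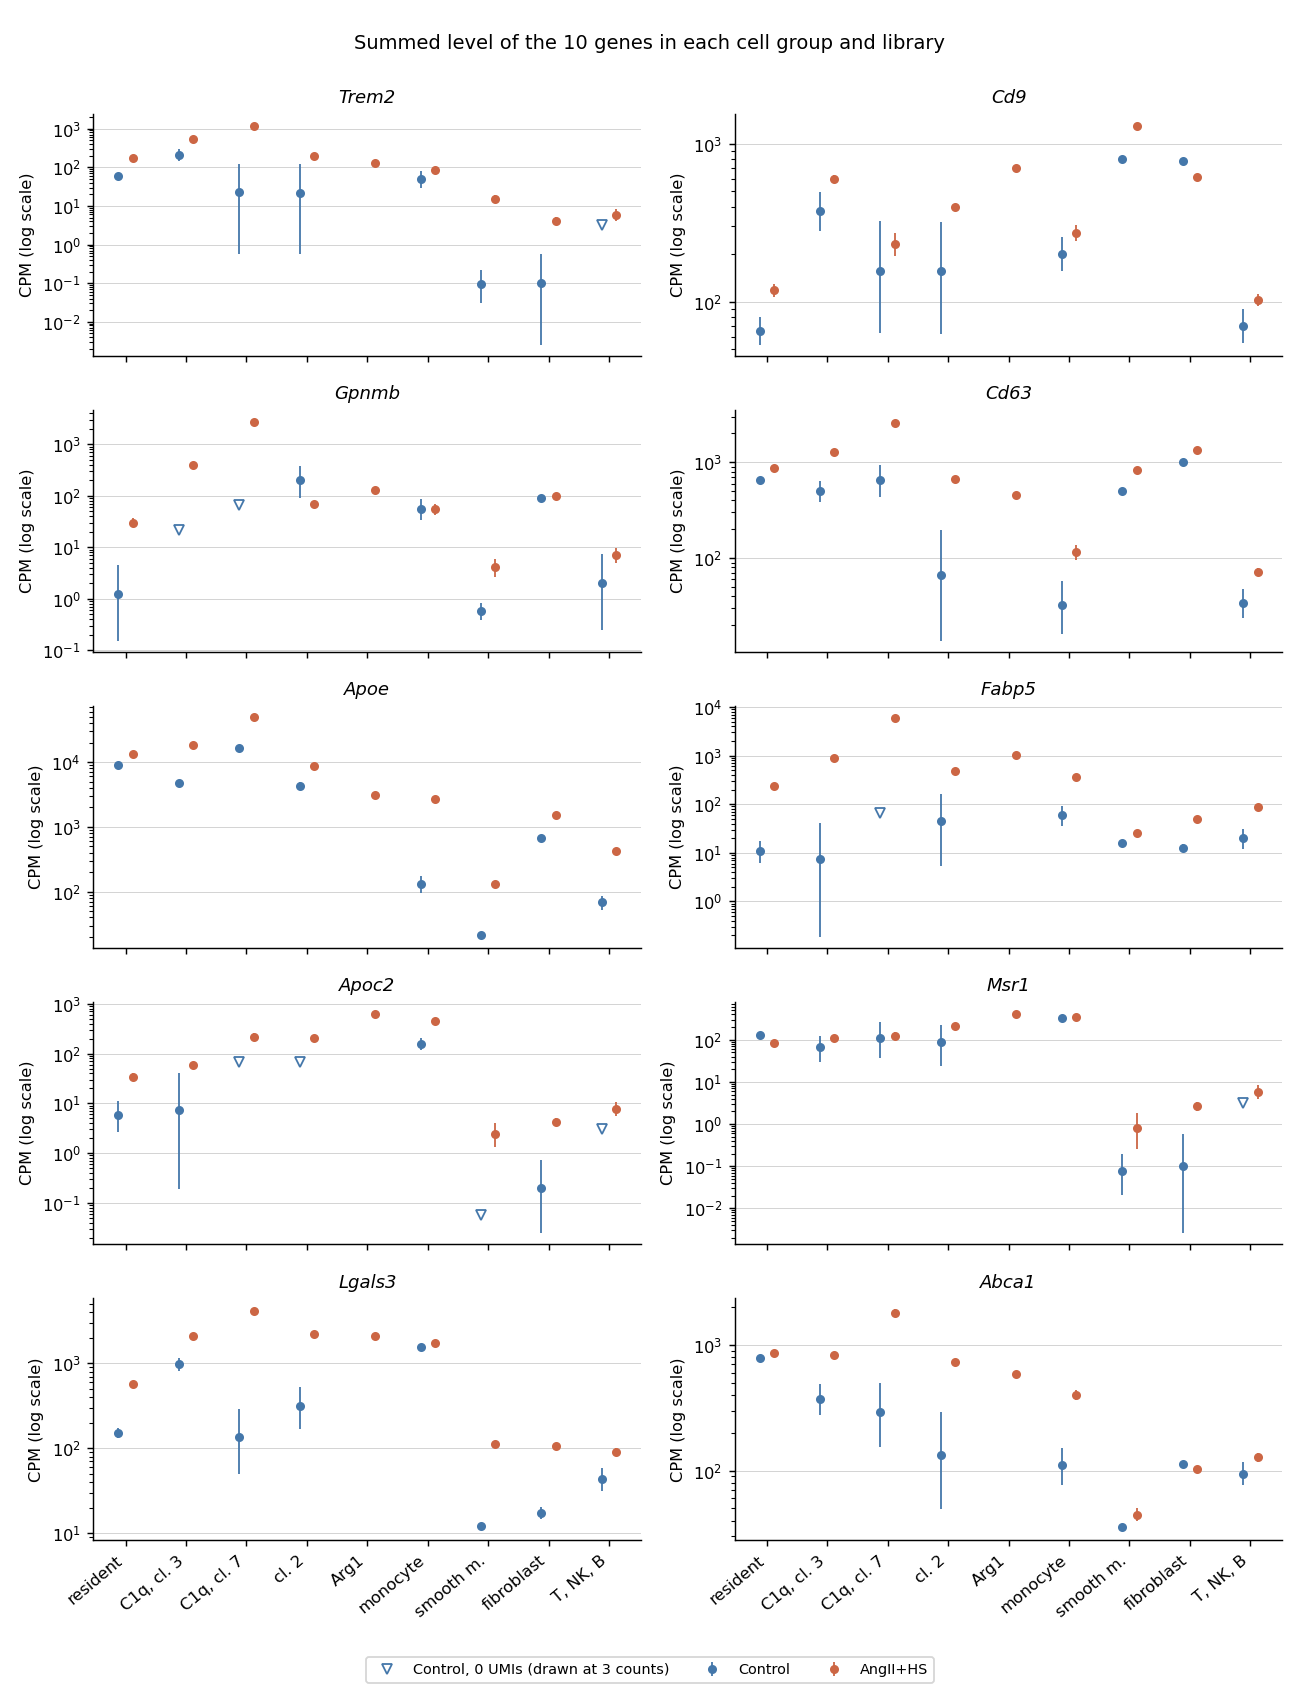
Each panel plots the level of a gene in CPM (log axis) over 9 cell groups, Control in blue and AngII+HS in orange, as points with 95% Poisson intervals, and open triangles mark groups with 0 UMIs, drawn at 3 counts. Cluster 7 of AngII+HS stands highest for *Trem2*, *Gpnmb*, *Apoe* and *Fabp5*, while *Apoc2* and *Msr1* are highest in the Arg1 group.

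Counted within groups, 5 of 10 members were at least 2-fold higher in AngII+HS resident-like macrophages (*Trem2*, *Gpnmb*, *Apoc2*, *Lgals3* and *Fabp5*), where 8.08% of all genes were higher and 8.2% lower. Control *Fabp5* (10.8 against 19.7 CPM) and *Gpnmb* (1.27 against 2.08 CPM) in resident-like macrophages were not above the lymphoid level. Among Ly6c2 monocyte-like cells 5 of 10 were higher (*Apoe*, *Apoc2*, *Cd63*, *Fabp5* and *Abca1*), beside 10% of all genes higher and 6.78% lower. In Control monocyte-like cells *Cd63* was no higher than in lymphoid cells, and the interval of *Abca1* overlapped the lymphoid one. In the C1q class 8 of 10 were higher, beside 10.6% of all genes higher and 15.6% lower. Its Control cells came mostly from cluster 7 and its AngII+HS cells mostly from cluster 3. By UMIs, which set the levels, cluster 3 gave most in both libraries (136168 of 180795 in Control and 2537417 of 3155294 in AngII+HS). Cluster 3 alone also gave 8 of 10, all but *Cd9* and *Msr1*, beside 11.3% higher and 16.2% lower over all genes. No member was at least 2-fold lower in any of these groups, which leave out cluster 2 with its 11 Control cells. *Apoc2* and *Fabp5* were the only members past 2-fold in resident-like, cluster 3 and monocyte-like cells alike. In Control cluster 3 each rested on 1 UMI (7.34 CPM, 0.186 to 40.9). For *Apoc2*, at 57.9 CPM in AngII+HS cluster 3, a ratio under 2-fold lies within that counting error. With TMM factors the share of genes higher was 11.1% and lower 5.3% in resident-like macrophages, 13.2% and 4.59% in monocyte-like cells, 19.8% and 8.4% in the C1q class, and 20.4% and 9.02% in cluster 3, where all 10 members then passed 2-fold. The 42 monocyte-like and 26 cluster 3 cells of Control make these values rest on few cells of 1 library. Fibroblast markers moved here too, from 191 to 751 CPM in resident-like macrophages, from 89 to 624 CPM in monocyte-like cells (*Lum*, *Pdgfra* and *Serpinf1* at 0 in Control) and from 184 to 598 CPM in cluster 3, and their part in the member values was not tested.

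**Figure D2:**
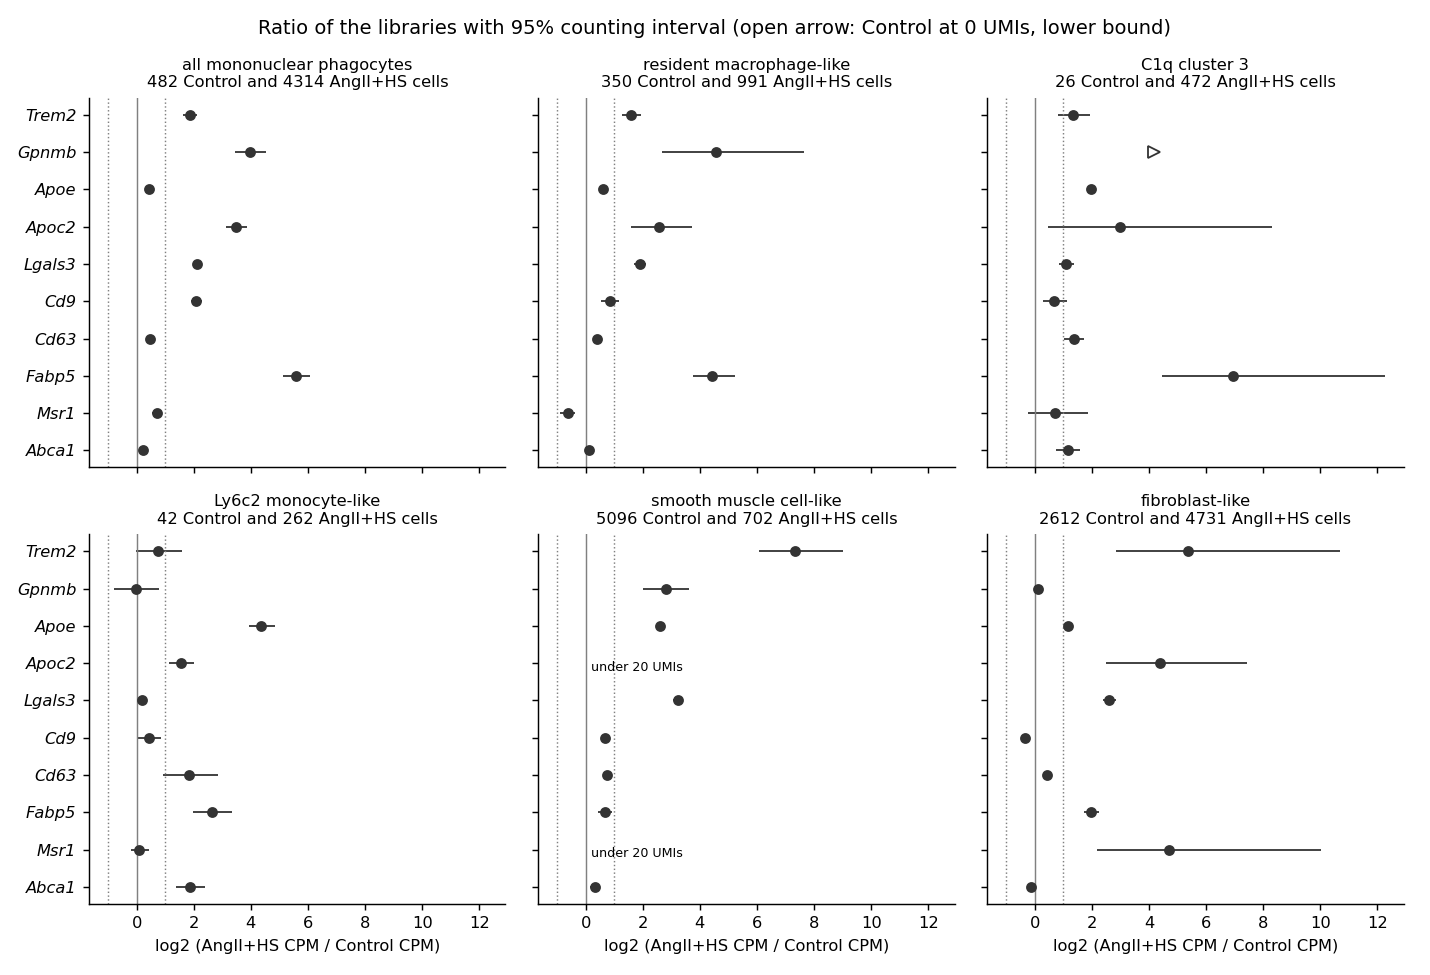
Points give the log2 ratio of AngII+HS to Control CPM for each gene (rows) in 6 cell groups (panels), with 95% counting intervals, dotted lines at 2-fold, and an open arrow for the lower bound where Control had 0 UMIs. *Fabp5* and *Apoc2* lie right of the 2-fold line in every phagocyte panel, and *Msr1* lies left of 0 in resident-like macrophages.

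Single cells were compared after each was thinned to 1000 UMIs, which leaves out shallower cells. A *Trem2* UMI was then found in 5.26% (3.37 to 7.79) of 437 Control and 17.1% (16 to 18.3) of 4152 AngII+HS phagocytes, and unthinned in 20.3% and 41.2%. The same share in AngII+HS T, NK and B cell-like cells was 0.639% (unthinned 1.37%, median depth 2143 UMIs). A *Fabp5* UMI was found in 0.458% and 24.2% of phagocytes (unthinned 6.43% and 40.4%). The shares in T, NK and B cell-like cells were 0.873% and 7.38%, so the Control phagocyte share was no higher than theirs. For *Gpnmb* the shares were 1.37% and 8.07%, beside 0.787% in AngII+HS lymphoid cells. *Lgals3* was found in 19.7% and 66.3% of phagocytes and *Apoc2* in 1.83% and 21.1%. *Apoe* (86% and 85.2%) and *Cd63* (41.6% and 41%) were found in like shares of both libraries. *Trem2* and *Gpnmb*, rare in most AngII+HS groups, were found in 66.2% and 69% of the 71 cells of cluster 7 over 1000 UMIs.

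At this depth Control phagocytes carried 2.15 ± 0.973 of the 10 genes per cell (mean ± SD over cells) and AngII+HS phagocytes 3.58 ± 1.51. The share with 5 or more was 0.915% and 25.6%. Resident-like macrophages had 2.22 ± 0.963 and 2.86 ± 1.15, and monocyte-like cells 1.95 ± 0.909 and 2.97 ± 1.31. In AngII+HS, Arg1 macrophage-like cells had 3.89 ± 1.45, cluster 3 4.12 ± 1.63 and cluster 7 6.01 ± 1.58, and 85.9% of cluster 7 cells carried 5 or more. T, NK and B cell-like cells had 0.362 ± 0.566 and 0.749 ± 0.818. Cells of 1 library are not replicates, and these SDs describe cells, not mice.

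**Figure D3:**
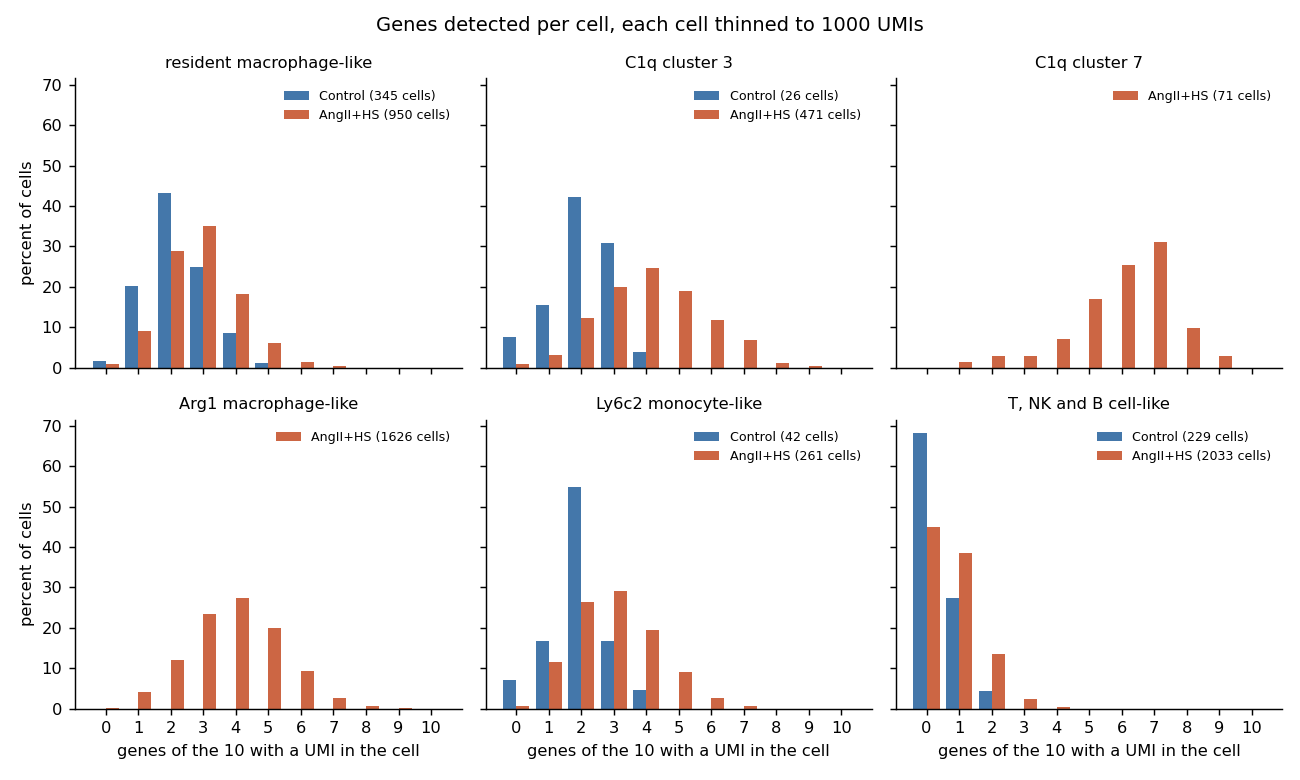
Bars give the percent of cells (y axis) by how many of the 10 genes had a UMI (x axis) after thinning to 1000 UMIs, for 6 cell groups, Control in blue and AngII+HS in orange. Control phagocyte groups peak near 2 genes, Control T, NK and B cell-like cells peak at 0, and AngII+HS cluster 7 is centred on 6.

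Detection of the members was compared between AngII+HS phagocytes with and without a *Trem2* or *Gpnmb* UMI. Thinning leaves many cells without a UMI of a gene they hold, since *Trem2* was found in 17.1% of AngII+HS phagocytes thinned and 41.2% unthinned. A missing UMI therefore cannot show that members lie in different cells, and only the shares are compared. Among the 712 thinned cells with a *Trem2* UMI, 16% also had *Gpnmb*, against 6.42% of the 3440 cells without. *Fabp5* was found in 35.1% and 21.9%, and *Cd63* in 54.9% and 38.1%. *Msr1* was found in 14.9% of cells with *Trem2* and 21.7% of those without, a gap that was not seen within resident-like macrophages (7.89% and 7.27%) or cluster 3 (8.47% and 6.46%) and was smaller within Arg1 cells (28.1% and 32.6%). *Lgals3* (66% and 66.4%) and *Cd9* (29.4% and 28.8%) were alike in both. *Gpnmb* marked a sharper split. *Fabp5* was found in 60.3% of the 335 cells with a *Gpnmb* UMI and 21% of the 3817 without, *Trem2* in 34% and 15.7%, and *Cd63* in 61.2% and 39.2%. Within cluster 3 *Fabp5* was found in 41.8% and 22.8% of cells with and without *Trem2* and in 72.5% and 21.2% of cells with and without *Gpnmb*, and within Arg1 cells in 37.3% and 27.9% and 55.4% and 26.5%. The cells with *Gpnmb* were somewhat deeper before thinning (median 4706 against 4033 UMIs). In Control, 23 thinned phagocytes held *Trem2* and 6 held *Gpnmb*, too few to describe.

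**Figure D4:**
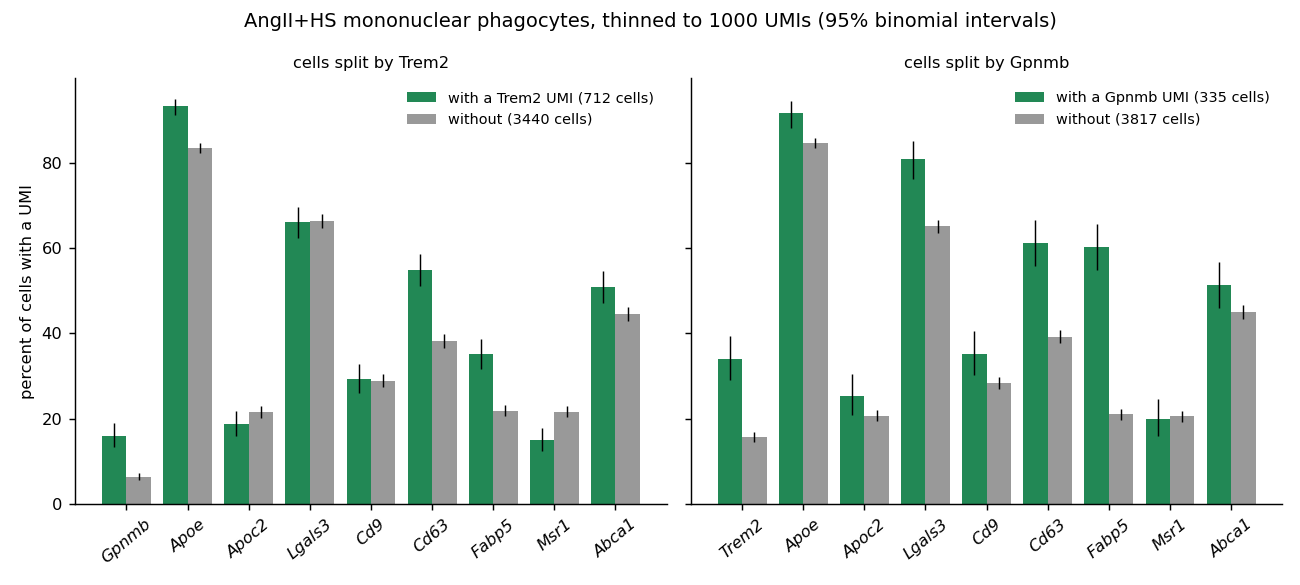
Bars give the percent of AngII+HS phagocytes with a UMI of each gene among cells with (green) and without (grey) a *Trem2* UMI, left, or a *Gpnmb* UMI, right, with 95% binomial intervals, each cell thinned to 1000 UMIs. *Fabp5* shows the widest gap on the right, 60.3% against 21%.

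Over 28 points, the cell groups of either library with at least 50 cells, the 45 pairs of members had a median Pearson r of 0.57 for log2(CPM + 5), from −0.27 (*Cd9* and *Msr1*) to 0.85 (*Apoc2* and *Lgals3*). The points share libraries and free RNA, so this is a description. *Cd9* stood apart because its highest AngII+HS levels were in Schwann-like cells (2305 CPM), neutrophil-like cells (2137 CPM) and lymphatic endothelial-like cells (1519 CPM). The genes most like *Trem2* were *Ms4a7* (r = 0.95), *Abcc3* (0.94) and *Spic* (0.92), and those most like *Gpnmb* were *Syngr1* (0.86), *Apoc1* (0.86) and *Smim29* (0.81). *Ms4a7* is among the markers by which phagocytes and C1q macrophages were named, so its likeness is not independent of the naming.

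In the stroma the 10 genes split into those well above the lymphoid level and those closer to it or below it. VSMC-like cells had *Cd9* at 804 and 1298 CPM and *Cd63* at 498 and 841 CPM, well above T, NK and B cell-like cells (70.6 and 103 CPM for *Cd9*). *Apoe* measured 21.2 and 130.5 CPM there and *Lgals3* 12 and 112 CPM. The AngII+HS *Apoe* level was below the 430.4 CPM of lymphoid cells, whereas *Lgals3* was slightly above their 90.7 CPM. Of the 8 members with at least 20 UMIs, 4 were at least 2-fold higher in AngII+HS VSMC-like cells (*Trem2*, *Gpnmb*, *Apoe* and *Lgals3*), beside 6.28% of all genes higher and 11.3% lower, and *Gpnmb* had only 26 UMIs. After subtraction of the lymphoid level, *Trem2* and *Lgals3* stayed higher. For *Lgals3* this rests on Control, which was below the lymphoid level (12 against 43.6 CPM) and was taken at 3 counts. *Apoc2* and *Msr1* were under 20 UMIs. Phagocyte markers summed to 41 CPM in Control and 139 CPM in AngII+HS VSMC-like cells, neutrophil markers to 7.04 and 192 CPM, and fibroblast markers to 2499 and 5728 CPM, all with every marker of the list detected.

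Fibroblast-like cells had their own *Gpnmb*, *Apoe*, *Cd9* and *Cd63*. *Gpnmb* measured 90.9 CPM in Control and 97.8 CPM in AngII+HS fibroblast-like cells (0.11, -0.0034 to 0.22), so Control fibroblasts had a higher *Gpnmb* level in CPM than Control phagocytes. *Apoe* measured 670.1 and 1513 CPM (1.17), with 763 and 2036 CPM in cluster 4, 558 and 1557 CPM in cluster 7 and 720.1 and 899.7 CPM in cluster 2 of all cells. It thus stayed above the lymphoid level in each of these clusters and in both libraries. *Gpnmb* was found in all 3 of them, at 97.4, 103 and 124 CPM in AngII+HS, whereas fibroblast cluster 19, which held 167 AngII+HS cells and 1 Control cell, had 3.03 CPM. *Cd63* measured 1013 and 1354 CPM and *Cd9* 782 and 621 CPM (-0.33). *Cd9* was also lower in AngII+HS vascular endothelial-like cells (947 and 586 CPM), while the intervals of the 2 libraries overlapped in pericyte-like cells (760.1 and 709 CPM). *Lgals3* (17.3 and 105 CPM), *Fabp5* (12.7 and 50.1 CPM) and *Trem2* (0.102 and 4.19 CPM) were below or slightly above lymphoid levels. In all, 6 of 10 were at least 2-fold higher in AngII+HS (*Trem2*, *Apoe*, *Apoc2*, *Lgals3*, *Fabp5* and *Msr1*), beside 7.87% of all genes higher and 8.18% lower. After subtraction of the lymphoid level of each library only *Lgals3* was at least 2-fold higher, and *Abca1* was lower. Both calls rest on a library below the lymphoid level, which was taken at 3 counts. This was Control for *Lgals3* (17.3 against 43.6 CPM) and AngII+HS for *Abca1* (104 against 127 CPM). Fibroblast-like cells were deeper than lymphoid cells in AngII+HS, and the effect of depth on this subtraction was not tested. TMM factors put 9.88% of genes higher and 5.76% lower here. Phagocyte markers summed to 88.9 and 189.8 CPM (*Ms4a7* at 0 in Control).

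*Trem2* in AngII+HS VSMC-like cells was unevenly spread. Of 702 cells, 41 had a *Trem2* UMI, with 96 UMIs in all, against 5 UMIs in 5096 Control cells, none with more than 1. The 8 cells with 3 or more, a limit set after the values were seen, held 56 of the 96 UMIs, up to 16 in a cell. They had 0 to 2 UMIs of the 12 phagocyte markers and a median of 633 UMIs of smooth muscle markers. The 479 phagocytes with 3 or more *Trem2* UMIs, whose clusters were named from these same 12 markers, had 7 to 808 (median 98). All 41 VSMC-like cells with *Trem2* held 115 phagocyte marker UMIs, up to 46 in a cell, and 11 of them held none. The 661 VSMC-like cells without *Trem2* held 759, up to 91 in a cell, and 336 held none. Median depths were 10838 and 8576 UMIs. Per 100 phagocyte marker UMIs, AngII+HS VSMC-like cells had 11 *Trem2* UMIs, phagocytes 2.06, fibroblast-like cells 2.21 and T, NK and B cell-like cells 1.19. The thinned share with *Trem2* was nevertheless low, 1% (0.404 to 2.05) beside 0.639% (0.341 to 1.09) in lymphoid cells, with overlapping intervals, and unthinned it was 5.84% and 1.37% at median depths of 8742.5 and 2143 UMIs. *Trem2* measured 17.2 CPM in AngII+HS VSMC cluster 1 and 5.78 CPM (6 UMIs) in cluster 6. The signal therefore rests on few cells of 1 library.

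**Figure D5:**
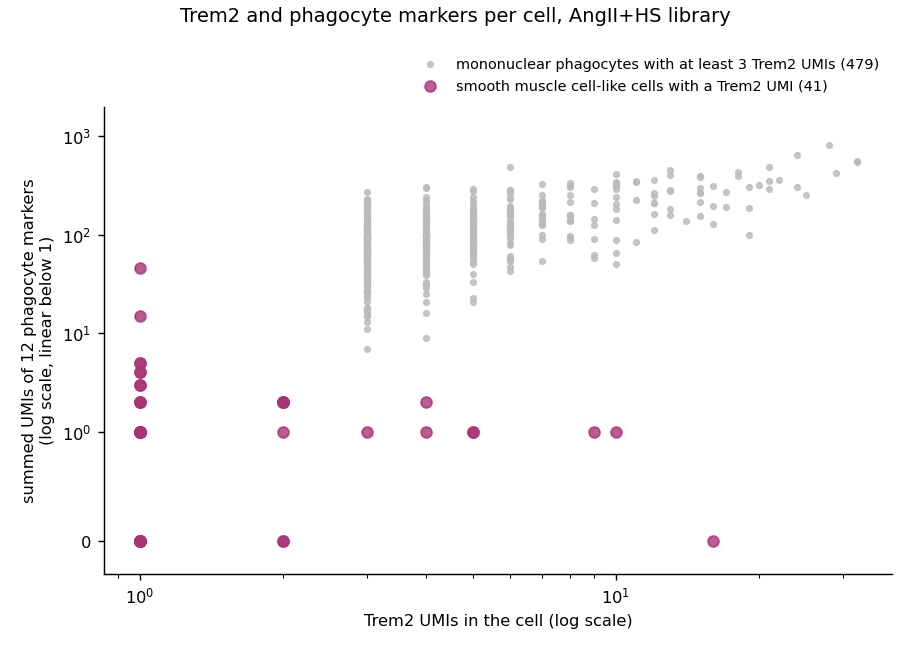
Each point is an AngII+HS cell, with its *Trem2* UMIs (x axis, log) against its summed UMIs of 12 phagocyte markers (y axis, log, linear below 1), grey for phagocytes with at least 3 *Trem2* UMIs and purple for VSMC-like cells with any. The 8 purple points at 3 or more *Trem2* UMIs lie at 0 to 2 marker UMIs, below all grey points.

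Other genes of the pathway were counted in the phagocytes from lists grouped by function, which were chosen with earlier results of these data known. In these cells 10.6% of all genes were at least 2-fold higher and 17.2% lower. Of 15 other genes of lipid-associated and foam-like macrophages, 12 were at least 2-fold higher and 0 lower in AngII+HS (median log2 ratio 1.69). *Spp1*, which encodes osteopontin, measured 51.1 and 2476 CPM (5.60), and *Cd5l* 0 and 78.4 CPM, at least 55.7-fold higher. Of 9 genes for efflux, apolipoproteins and LXR targets, 5 were higher and 0 lower. *Abcg1*, the partner exporter of *Abca1*, measured 19.2 and 106 CPM (2.46), and *Nr1h3*, which encodes the receptor LXRα, had a log2 ratio of 2.34. *Scd2*, *Apoc1* and *Apoc4* were the others, with 8, 3 and 1 Control UMIs. Of 15 lysosomal genes 7 were higher and 0 lower, with the proteases *Ctsl* (208 and 895 CPM, 2.11) and *Ctsd* (2.08). Within groups the shares were smaller. The other lipid-associated genes gave 6 of 12 measured genes higher in resident-like macrophages, 3 of 10 with 1 lower in monocyte-like cells and 4 of 14 with 1 lower in cluster 3 (median log2 ratio 0.30). The lysosomal list gave 2 of 15, 2 of 14 and 4 of 15 in the same order, and the efflux list 3 of 7, 4 of 8 and 0 of 7. In that order 8.08%, 10% and 11.3% of all genes were higher and 8.2%, 6.78% and 16.2% lower. The lysosomal counts in resident-like and monocyte-like cells were thus near the share of all genes.

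Uptake genes were mixed. Of 9, 3 were higher (*Lpl*, *Lrp1* and *Olr1*) and 2 lower (*Cd36* and *Vldlr*, the latter on few UMIs). *Cd36*, a scavenger receptor, measured 1094 CPM in Control and 326 CPM in AngII+HS phagocytes (-1.75). *Lpl*, which encodes lipoprotein lipase, had a log2 ratio of 1.71 and *Lrp1*, an endocytic receptor, one of 1.26. Within groups, of 8 measured uptake genes 1 was higher and 1 lower in resident-like macrophages, and 1 and 2 in monocyte-like cells. In cluster 3, 3 of 8 were higher and 0 lower. The shares of all genes in these groups are given above. The part that the makeup of the phagocytes had in the *Cd36* ratio was not tested. In fat storage, over all phagocytes, 2 of 9 were higher and 0 lower. These were *Hilpda* (2.43), which also counts among the Arg1 macrophage markers, and *Fabp4* (1.77). Of the 9 partners of TREM2, 1 was higher, its adaptor *Tyrobp* (655 and 1491 CPM, 1.19), and of 9 regulators 1 was higher, *Tfec* of the MITF family (1.45), with 0 lower in either list, shares near that of all genes. Of 9 relatives of the member tetraspanins and galectin, 2 were higher (*Lgals1*, 1.48, and *Lgals3bp*, 1.54) and 1 was lower (*Cd81*, 527 and 202 CPM, -1.39).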

How the data were processed

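Abdominal aortas were digested to single cells and sequenced by droplet capture with unique molecular identifiers (UMIs), 1 library per condition. The deposited matrices hold raw UMI counts, from Cell Ranger as run by the authors, before any normalization or removal of doublets. Of 11448 Control and 24804 AngII+HS barcodes in them, 11288 and 24560 passed the cell filter below. Most barcodes of empty droplets were thus already left out, and free RNA was not estimated from such droplets. The matrix headers name version 8.0.1 and GRCm39, whereas the submitters' processing notes name mm10, which was not resolved. Each matrix was assigned to the sample that GEO lists it with. The lengths of the barcode lists (24804 under Control, 11448 under AngII+HS) are crossed relative to the matrices, so these lists served only to count shared barcodes (67). The shares of VSMC-like and neutrophil-like cells in the matrices as assigned are given with the results. The deposited totals were 86618995 (Control) and 117146856 (AngII+HS) UMIs.

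Cells with at least 500 UMIs, 200 genes and under 20% mitochondrial UMIs were kept, and 1019 Control and 4826 AngII+HS cells with the highest Scrublet scores (scanpy 1.11.5, 0.8% per 1000 cells) were removed. Libraries were integrated in Seurat 5.3.0 (R 4.3.3) on 2000 variable genes without the 10 members, with 30 components and resolution 0.8, and phagocytes were clustered again with 20 components at resolution 0.5. Clusters took the name of the marker list scoring highest, with 5 CPM added, if at least 3 markers were detected in 10% of cells. The rule that a score at or below 0 leaves a cluster unnamed was settled after the clusters were seen. The members and lists were chosen with earlier results of these data known.

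UMIs were summed per cell group and library and given as CPM (counts per 1000000 UMIs of the group) with exact Poisson intervals. Ratios have exact conditional binomial intervals, shares exact Clopper-Pearson intervals, and a group at 0 was taken at 3 counts. With 1 library per condition there was no test. A gene with at least 20 UMIs over both libraries was counted as higher or lower at 2-fold. The text names all 10 members, per list at most the 3 genes with the largest ratio among those at least 2-fold apart with at least 200 UMIs, and the 3 genes most like *Trem2* and *Gpnmb*. *Olr1*, *Vldlr*, *Scd2* and *Apoc4* were named after their values were seen. The counting steps were tested on simulated data (numpy 2.4.6, scipy 1.17.1). Alternatives were no doublet removal, a stricter cell filter, members kept for clustering, no integration, other resolutions, other scalings (TMM by edgeR 4.0.16), equal weight per cell, subtraction of the lymphoid level and a 1.5-fold threshold.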

Additional observations from a re-analysis of the deposited data

Results flagged for a closer look

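*Cd9* went in opposite directions between cell groups. Its log2 ratio of AngII+HS to Control was 0.85 in resident-like macrophages, 0.44 in Ly6c2 monocyte-like cells, 0.72 in the C1q class and 0.69 in VSMC-like cells, and -0.33 in fibroblast-like cells. TMM factors shift the fibroblast ratio up by 0.20. Outside these groups *Cd9* was also lower in AngII+HS vascular endothelial-like (947 and 586 CPM) and Schwann-like cells (2678 and 2305 CPM). In pericyte-like cells (760.1 and 709 CPM) the intervals of the libraries overlapped. The Control level in resident-like macrophages, 65.6 CPM, was not above the lymphoid level of 70.6 CPM. Each is 1 library against 1, and the difference between the groups was not tested.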

How the results depend on the processing

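The counts of members at least 2-fold apart kept their value within 1.5 times under all settings that gave one, with these exceptions. At a 1.5-fold threshold 1 member was lower in resident-like macrophages (0 at 2-fold), and 7 were higher in VSMC-like cells (4 at 2-fold). The shares of all genes past 1.5-fold are not given, so these counts cannot be read against them. After subtraction of the T, NK and B cell-like level, 2 of 4 measured members were higher in VSMC-like cells, and 1 of 9 was higher and 1 lower in fibroblast-like cells. In both groups a library at or below that level was taken at 3 counts, and the shares of all genes are not given for this setting. No member ratio past 2-fold changed sign. Of the member ratios recomputed under the alternatives, 394 stayed within the counting interval and 106 moved outside it, 21 of them with equal weight per cell, 20 with TMM factors, 12 without doublet removal and 20 under merging without integration, where only 73 Control phagocytes were named and all 10 phagocyte ratios moved, such as *Apoe* to 2.59 and *Lgals3* to 0.60. Small ratios changed sign for *Gpnmb* in monocyte-like cells (5 settings), *Abca1* in fibroblast-like cells (3 settings) and *Msr1* in the C1q class (equal weight per cell). The causes were not tested. TMM factors shift the ratios by 0.19 in resident-like macrophages, 0.16 in monocyte-like cells, 0.37 in cluster 3 and 0.20 in fibroblast-like cells. Among genes with at least 100 UMIs, 9.3% were higher and 10.9% lower in phagocytes. At resolution 0.3 no cluster was named Arg1 or monocyte-like, and groups with under 20 Control cells (the C1q class without doublet removal, with members kept and under merging, and resident-like macrophages under merging) gave no value. No paired analysis was possible because each condition has 1 library.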
